A study of Mus musculus with 9 samples.

Results

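The genes described here are 48 interferon response genes, taken by symbol from a named list and followed across liver tumors of 3 groups. All 48 symbols were found among the 24421 symbols of the deposited tables. The list was drawn up by gene function and not from differences between the tumors, although earlier results of these data were known when it was made.

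The samples are 9 liver tumors of C57BL/6 mice aged 11 weeks, 3 in each of the groups LHP (tumors 2, 3 and 6), S7HP (tumors 9, 11 and 12) and S7HP+Snail (tumors 13, 14 and 15). Column names in the tables tie LHP to Luc2A and S7HP to Smad72A, and the S7HP+Snail columns carry Smad72A with snail. Smad7, an inhibitory Smad, acts against signalling from the TGF-β receptors, and Snail is a transcription factor that represses epithelial genes. The labels spell out neither the letters H and P, which all 3 groups share, nor how the tumors were started, which cells carry the constructs, or whether each tumor came from its own animal. The p-values therefore measure the spread between these tumors only. The mouse gene Smad7 was lower in the tumors named for it, at 6.28 to 6.81 in S7HP against 9.49 to 10.50 in LHP on the log2 scale. Snai1 was at 9.93 to 11.16 in LHP, 6.17 to 6.92 in S7HP and 7.31 to 8.53 in S7HP+Snail. A 3′ tag library sees a construct under the mouse symbol only if the construct carries the 3′ end of the mouse gene, which is not stated, so neither gene checks the labels.

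Interferons are cytokines released when cells sense foreign or misplaced nucleic acids, and they act through cell surface receptors, Janus kinases and STAT proteins. Type I and type III interferons bring the complex ISGF3, which holds STAT2 and IRF9, to a DNA element called ISRE, while interferon gamma acts through an element called GAS. The genes switched on include sensors that amplify the response, enzymes that degrade or edit viral RNA, the ubiquitin-like protein ISG15 with its conjugating enzymes, and large GTPases that attack vacuoles of intracellular microbes. In the liver, hepatocytes, macrophages and other cells can all make these transcripts, so a bulk tumor value does not name the cell of origin. More cells of a type and more RNA per cell cannot be told apart in such samples.

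Promoter sequences are shown for 5 members as examples of the elements through which the interferon signal is read, and were picked because they hold a match. All 5 were called higher in S7HP than in LHP (a limma adjusted p under 0.05), Isg15 and Rsad2 in every one of the 15 settings tried, while the calls of Ifit1, Irgm2 and Igtp were lost in 4, 5 and 8 of them. The windows of Irf7, Ifi44, Cmpk2 and Lgals3bp, also called in every setting, hold no match and are not shown. The windows come from RefSeq (GRCm38.p6) and hold the 250 bases before the start of transcription, written 5′ to 3′ on the strand of the gene. Capitals mark a pair of GAAA with 2 bases between them, the core of the ISRE, or TTCNNNGAA, the GAS core, each searched on both strands. Isg15 lies at chr4:156200819-156201068 (minus strand), Ifit1 at chr19:34640639-34640888 (plus strand), Rsad2 at chr12:26456453-26456702 (minus strand), Igtp at chr11:58199306-58199555 (plus strand) and Irgm2 at chr11:58214727-58214976 (plus strand).
Isg15: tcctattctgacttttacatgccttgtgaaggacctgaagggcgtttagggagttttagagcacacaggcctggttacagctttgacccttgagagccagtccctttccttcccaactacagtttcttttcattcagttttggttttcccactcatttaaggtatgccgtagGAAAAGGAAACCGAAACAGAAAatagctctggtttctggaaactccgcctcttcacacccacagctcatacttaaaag
Ifit1: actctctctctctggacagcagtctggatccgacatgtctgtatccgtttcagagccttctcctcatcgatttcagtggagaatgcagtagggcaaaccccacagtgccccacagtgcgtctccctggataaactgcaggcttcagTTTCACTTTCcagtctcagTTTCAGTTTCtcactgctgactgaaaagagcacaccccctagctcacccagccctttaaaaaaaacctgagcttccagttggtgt
Rsad2: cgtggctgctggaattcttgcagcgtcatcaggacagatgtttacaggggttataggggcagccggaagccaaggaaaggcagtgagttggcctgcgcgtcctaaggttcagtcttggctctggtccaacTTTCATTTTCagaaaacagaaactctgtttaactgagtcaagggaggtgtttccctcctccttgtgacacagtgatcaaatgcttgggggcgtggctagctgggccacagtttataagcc
Igtp: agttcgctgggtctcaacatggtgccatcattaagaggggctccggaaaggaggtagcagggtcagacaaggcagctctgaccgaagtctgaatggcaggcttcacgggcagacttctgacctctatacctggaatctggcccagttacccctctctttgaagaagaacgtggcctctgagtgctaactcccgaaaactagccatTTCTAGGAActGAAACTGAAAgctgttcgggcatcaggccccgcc
Irgm2: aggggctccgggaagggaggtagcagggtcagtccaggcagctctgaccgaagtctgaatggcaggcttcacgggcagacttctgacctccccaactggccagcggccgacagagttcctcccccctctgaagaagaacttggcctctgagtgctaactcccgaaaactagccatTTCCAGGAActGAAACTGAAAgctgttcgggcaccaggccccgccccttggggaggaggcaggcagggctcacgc
The Isg15 window holds 3 overlapping ISRE matches that begin 78, 72 and 66 bases before the start. The Ifit1 window holds 2, at 104 and 85 bases, and the Rsad2 window holds 1, at 120 bases. In Igtp and Irgm2 a GAS match is followed by an ISRE match that begins 11 bases further on, at 45 and 34 bases before the start in Igtp and at 75 and 64 bases in Irgm2. The letters around these matches are nearly the same in both windows, so they are not separate examples of the arrangement. The Irgm2 model of the reference annotation (GENCODE M21) begins at 58199618, so the RefSeq window of Irgm2 lies inside that model.

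A RefSeq window of 300 bases (250 before and 50 after the start) was matched for 36 of the 48 members. An ISRE match was present in 20 of these 36 (55.6%), against 3.99% of the 27025 symbols with a window. A GAS match was present in 9 of 36 (25.0%), against 9.55%, and both kinds in 7 of 36 (19.4%), against 0.61%. Where a symbol had more than 1 window, a match in any of them counted. All 6 interferon-inducible GTPase genes with a window held an ISRE match and 3 of them a GAS match. A match is a description of letters and not a bound site.

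Expression is given as the deposited log2 value, log2(quantile-normalized read count + 1), in which 1 unit is a doubling. The 9 libraries share 1 distribution of values with totals of 19910396 to 19911234 normalized counts, so raw depth is not preserved. About 3 reads correspond to a log2 value of 1.22 to 2.64, depending on the library. Tumors of the same group correlated across the 14215 genes tested (genes are not replicates) at 0.939 to 0.945 in LHP, at 0.923 to 0.936 in S7HP and at 0.864 to 0.900 in S7HP+Snail. A gene was called when limma gave a Benjamini-Hochberg (BH) adjusted p under 0.05 over all 14215 genes. All 48 members passed the filter on low values, which asked for log2 4 or more in 3 or more tumors. Oas3 passed through the S7HP and S7HP+Snail tumors alone, since all 3 LHP tumors lay below 4. Values by tumor are listed in the order of the tumor numbers given above, and folds are ratios of normalized count + 1.

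In S7HP tumors, 21 of the 48 members rose relative to LHP, 0 fell and 27 did not pass the test. Over all genes tested, 9.47% were called higher and 9.54% lower. The group means of 47 members were above those of LHP, against 50.9% of all genes, and in 28 members every S7HP tumor lay above every LHP tumor, against 20.9% of all genes. The median difference of the members was 1.14 on the log2 scale, against 0.02 over all genes. The deubiquitinase gene Usp18 had the largest difference, at 11.1-fold, and the GTPase gene Gbp3 was the member with a lower mean in S7HP.

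S7HP+Snail tumors did not separate from S7HP tumors by the same test. None of the 48 members was called higher and none lower (limma, BH-adjusted p under 0.05), where 1.01% of all genes were called higher and 1.29% lower. At an unadjusted limma p under 0.05, 5 members were higher and 0 lower, against 8.53% of all genes higher. In 8 members every S7HP+Snail tumor lay above every S7HP tumor, against 9.53% of all genes. The mean was higher in S7HP+Snail for 26 members, against 48.3% of all genes, and the median difference was 0.12, against -0.02.

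Relative to LHP, 19 members rose in S7HP+Snail tumors, 0 fell and 29 did not pass, with 3.35% of all genes called higher and 3.87% lower. The means of 48 of 48 members were above LHP, against 49.9% of all genes. In 31 members the groups did not overlap, against 14.7% of all genes. The median difference was 1.52, against -0.001 over all genes. This comparison and that of S7HP with LHP share the 3 LHP tumors, so the counts are not independent of each other.

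**Figure D1:**
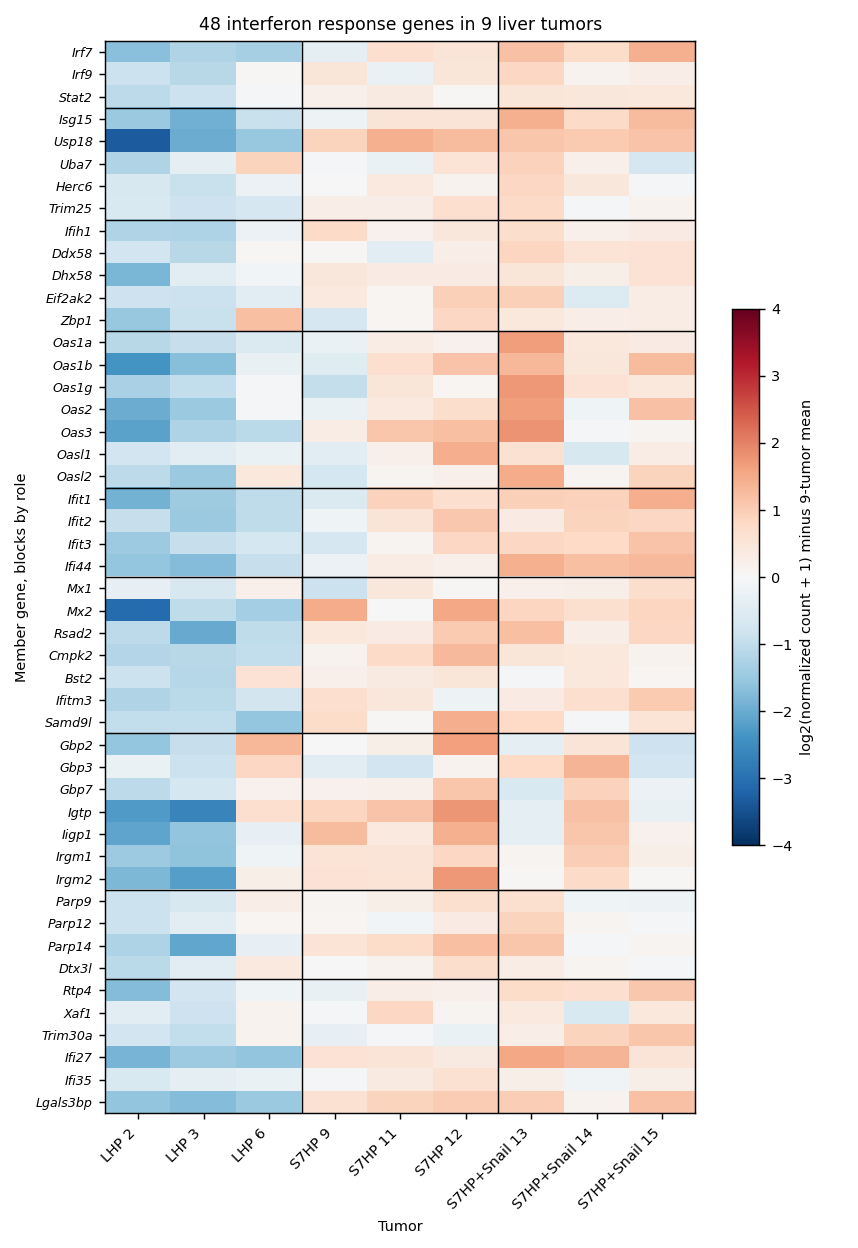
Heat map of the 48 members (top to bottom, ordered by role) in the 9 tumors (left to right). Color gives each log2 value minus the mean of that gene over the 9 tumors, in log2 units. LHP tumors 2 and 3 lie below the mean in 48 of 48 members and LHP tumor 6 in 31.

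LHP tumor 6 stood apart within its group. It had the highest value of the 3 LHP tumors in 42 of 48 members, and 17 members were above their 9-tumor mean in it, against 0 in LHP tumors 2 and 3. Without LHP tumor 6, 22 members were called higher in S7HP and 18 in S7HP+Snail, and the median differences were 1.42 and 1.73. S7HP tumor 12 was the highest of its group in 30 members and S7HP+Snail tumor 13 in 28. The counts fell most when another LHP tumor was left out. They were 13 without LHP tumor 2 and 12 without LHP tumor 3 for S7HP against LHP, and 9 and 7 for S7HP+Snail against LHP. The member counts also fell to 13 without S7HP tumor 12, and to 11 without S7HP+Snail tumor 13 or tumor 15. Calls over all genes tested fell too. For S7HP against LHP they went from 2702 to 1811 without LHP tumor 2, 1479 without tumor 3 and 1465 without tumor 6. For S7HP+Snail against LHP they went from 1026 to 452, 293 and 311. Without S7HP tumor 12 the first was 2124, and without S7HP+Snail tumors 13 and 15 the second was 718 and 846.

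**Figure D2:**
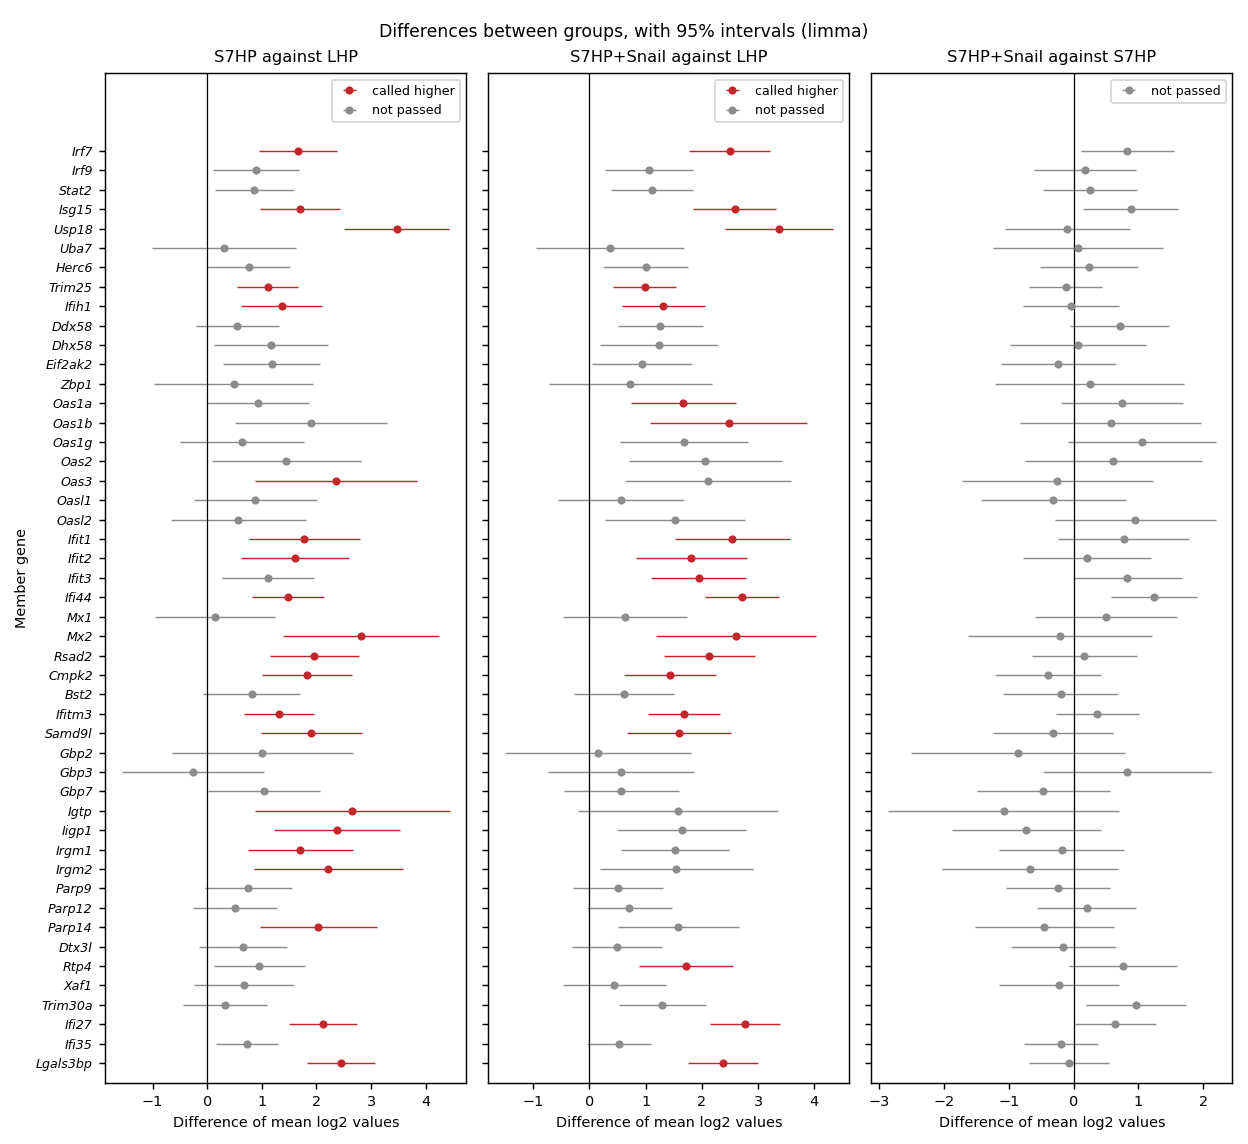
Difference of group means in log2 units for each of the 48 members, with 95% intervals from limma, in the 3 comparisons. Red points passed a BH-adjusted p under 0.05, which 21, 19 and 0 members did from left to right, and 47 and 48 points lie above 0 in the comparisons with LHP.

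Of the 3 transcription factor genes, 1 rose in each comparison with LHP, where 9.47% (S7HP) and 3.35% (S7HP+Snail) of all genes were called higher. A single call in a role group this small is a result about that gene and not about the group. Irf7 (chr7:141262706-141266481), the factor that amplifies type I interferon production, was at 7.01, 7.47 and 7.35 in the LHP tumors, 8.32, 9.34 and 9.18 in the S7HP tumors and 9.84, 9.40 and 10.07 in the S7HP+Snail tumors. The 3 groups did not overlap, with S7HP+Snail highest and LHP lowest. The difference of 0.83 between S7HP+Snail and S7HP did not pass (limma, BH-adjusted p = 0.215). Irf7 rose by 1.67 ± 0.32 (SE; 3.18-fold) in S7HP (limma, BH-adjusted p = 0.00788) and by 2.49 ± 0.32 (SE; 5.63-fold) in S7HP+Snail relative to LHP (limma, BH-adjusted p = 0.00338). Irf9 (chr14:55603571-55610030), the DNA-binding subunit of ISGF3, was at 9.96, 9.72 and 10.88 in the LHP tumors, 11.32, 10.58 and 11.32 in the S7HP tumors and 11.68, 10.98 and 11.10 in the S7HP+Snail tumors. LHP tumor 6 lay above S7HP tumor 11, and the difference of 0.89 for S7HP against LHP did not pass (limma, BH-adjusted p = 0.105). Stat2, its partner in ISGF3, had values of 5.93 to 6.92 in LHP, 7.02 to 7.35 in S7HP and 7.41 to 7.47 in S7HP+Snail, and also did not pass in either comparison with LHP (limma, BH-adjusted p = 0.0922 and 0.0689). The Irf7 model overlaps Phrf1 on the other strand and the Irf9 model overlaps Rnf31. Whether counting used the strand is not given in the sources used here.

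Genes of the ISG15 system, which attaches a ubiquitin-like tag to proteins and removes it, gave 3 calls of 5 in each comparison with LHP. The shares of all genes called higher were 9.47% in S7HP and 3.35% in S7HP+Snail. Isg15 (chr4:156199424-156200818), the tag itself, was at 8.73, 8.31 and 9.35 in the LHP tumors, 10.01, 10.75 and 10.74 in the S7HP tumors and 11.66, 10.99 and 11.50 in the S7HP+Snail tumors. Its lowest S7HP tumor lay above its highest LHP tumor, and all 3 S7HP+Snail tumors lay above all 3 S7HP tumors. Isg15 rose by 1.70 ± 0.33 (SE; 3.26-fold) in S7HP (limma, BH-adjusted p = 0.008) and by 2.58 ± 0.33 (SE; 6.00-fold) in S7HP+Snail relative to LHP (limma, BH-adjusted p = 0.00332). The further 0.88 from S7HP to S7HP+Snail did not pass (limma, BH-adjusted p = 0.198). Usp18 (chr6:121245906-121270917), which cleaves ISG15 from its targets and dampens type I receptor signalling, was at 4.11, 5.45 and 5.92 in the LHP tumors, 8.31, 8.87 and 8.70 in the S7HP tumors and 8.54, 8.47 and 8.57 in the S7HP+Snail tumors. The 6 tumors of S7HP and S7HP+Snail lay within 8.31 to 8.87, all above the highest LHP tumor. Usp18 rose by 3.47 ± 0.43 (SE; 11.1-fold) in S7HP (limma, BH-adjusted p = 0.0012) and by 3.37 ± 0.43 (SE; 10.3-fold) in S7HP+Snail (limma, BH-adjusted p = 0.00338). Trim25 (chr11:88999376-89020293), a ubiquitin and ISG15 ligase that activates RIG-I, was at 9.58, 9.35 and 9.51 in the LHP tumors, 10.46, 10.45 and 10.86 in the S7HP tumors and 10.94, 10.14 and 10.32 in the S7HP+Snail tumors. It had smaller differences than Isg15 or Usp18, 1.11 ± 0.25 (SE; 2.16-fold) in S7HP (limma, BH-adjusted p = 0.0146) and 0.99 ± 0.25 (SE; 1.98-fold) in S7HP+Snail (limma, BH-adjusted p = 0.045), without overlap between either group and LHP. The Trim25 call in S7HP was lost without LHP tumor 3 (limma, BH-adjusted p = 0.0561), and that in S7HP+Snail in 11 of the 15 settings tried (up to 0.143). Uba7, the activating enzyme for ISG15, and Herc6, its ligase in the mouse, differed from LHP by 0.30 and 0.76 in S7HP and did not pass (limma, BH-adjusted p = 0.755 and 0.143).

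**Figure D3:**
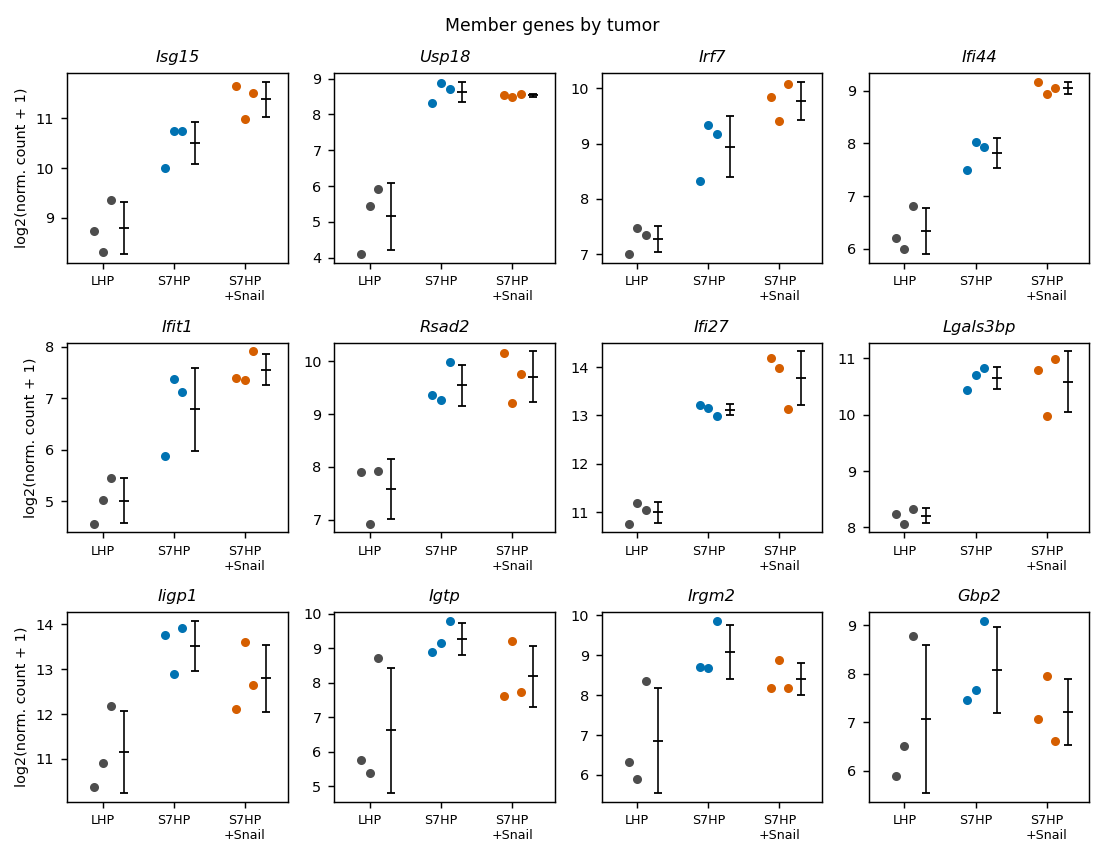
Log2 values of 12 members by tumor, with 1 point per tumor and the mean ± SD (n = 3) beside each group. Isg15, Irf7 and Ifi44 step up from LHP to S7HP and again to S7HP+Snail, though the second step did not pass in any of them. Igtp and Irgm2 have a wide LHP group that includes tumor 6 at 8.70 and 8.36.

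Among the nucleic acid sensors, 1 of 5 rose in each comparison with LHP, against 9.47% (S7HP) and 3.35% (S7HP+Snail) of all genes called higher. The single call does not speak for the sensors as a group. Ifih1 (chr2:62595798-62646255), which encodes the double-stranded RNA sensor MDA5, was at 6.91, 6.87 and 7.88 in the LHP tumors, 8.89, 8.27 and 8.57 in the S7HP tumors and 8.82, 8.33 and 8.45 in the S7HP+Snail tumors. LHP tumor 6 was the highest of its group and still lay below every S7HP and S7HP+Snail tumor. Ifih1 rose by 1.36 ± 0.33 (SE; 2.57-fold) in S7HP (limma, BH-adjusted p = 0.02) and by 1.31 ± 0.33 (SE; 2.49-fold) in S7HP+Snail (limma, BH-adjusted p = 0.0441). The first call was lost without LHP tumor 2, LHP tumor 3 or S7HP tumor 9 (limma, BH-adjusted p up to 0.0751), and the second in 10 of the 15 settings tried (up to 0.147). Ddx58, which encodes RIG-I, and its regulator Dhx58 differed by 0.55 and 1.17 in S7HP and did not pass (limma, BH-adjusted p = 0.284 and 0.107). The kinase gene Eif2ak2 (PKR), which halts translation on double-stranded RNA, differed by 1.18 in S7HP without overlap and did not pass (limma, BH-adjusted p = 0.0644). Zbp1, a sensor of Z-form nucleic acids, ranged from 5.52 to 8.25 in LHP alone and overlapped in both comparisons with LHP.

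Of the 7 genes of the OAS family, whose enzymes make the 2-5A that activates RNase L, 1 was called in S7HP relative to LHP. In S7HP+Snail 2 of 7 were called relative to LHP. The shares of all genes called higher were 9.47% and 3.35%, so 1 of 7 in S7HP lies near the share of all genes. Oas1a (chr5:120896256-120907521) was at 5.44, 5.63 and 5.97 in the LHP tumors, 6.27, 6.83 and 6.71 in the S7HP tumors and 8.22, 6.95 and 6.88 in the S7HP+Snail tumors. The groups did not overlap in either comparison with LHP, and the difference passed in S7HP+Snail at 1.67 ± 0.42 (SE; 3.19-fold) (limma, BH-adjusted p = 0.0441) and not in S7HP at 0.93 (limma, BH-adjusted p = 0.15). Oas1b (chr5:120812635-120824163) was at 3.39, 4.09 and 5.49 in the LHP tumors, 5.31, 6.46 and 6.91 in the S7HP tumors and 7.11, 6.25 and 7.04 in the S7HP+Snail tumors. Its difference passed in S7HP+Snail at 2.48 ± 0.63 (SE; 5.56-fold) (limma, BH-adjusted p = 0.0444), and in S7HP tumor 9 lay below LHP tumor 6. Oas3 rose in S7HP by 2.36 ± 0.66 (SE; 5.13-fold) (limma, BH-adjusted p = 0.0345), from 2.35 to 3.42 in LHP to 4.79 to 5.70. The LHP values of Oas3 lie near the level of a few reads, and its call was lost when any 1 LHP or S7HP tumor was left out (limma, BH-adjusted p up to 0.0961). The Oas1a and Oas1b calls in S7HP+Snail were lost without LHP tumor 2, LHP tumor 3 or S7HP+Snail tumor 13, among others (limma, BH-adjusted p up to 0.124 and up to 0.13). Oasl1 (chr5:114923240-114937915), which lacks synthetase activity, was at 6.56, 6.93 and 7.07 in the LHP tumors, 6.87, 7.55 and 8.78 in the S7HP tumors and 7.95, 6.68 and 7.62 in the S7HP+Snail tumors, with overlap in all 3 comparisons. S7HP+Snail tumor 13 had the highest value of the 9 tumors in 6 of the 7 genes, all except Oasl1. Oas1a and Oas1g are close copies, so reads may have been split between them, and the reference annotation (GENCODE M21) lists Oas1b as a polymorphic pseudogene.

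Of the 3 IFIT genes and Ifi44, 3 of 4 rose in S7HP, all except Ifit3, and 4 of 4 in S7HP+Snail relative to LHP. The shares of all genes called higher were 9.47% and 3.35%. Ifit1 (chr19:34640871-34650009), whose protein binds RNA that lacks a complete host cap, was at 4.57, 5.03 and 5.46 in the LHP tumors, 5.87, 7.37 and 7.14 in the S7HP tumors and 7.40, 7.37 and 7.92 in the S7HP+Snail tumors. S7HP tumor 9 was the lowest of its group and lay above the highest LHP tumor. Ifit1 rose by 1.77 ± 0.46 (SE; 3.42-fold) in S7HP (limma, BH-adjusted p = 0.0248) and by 2.54 ± 0.46 (SE; 5.83-fold) in S7HP+Snail (limma, BH-adjusted p = 0.0134). Ifit2 (chr19:34550694-34576419) was at 4.78, 4.19 and 4.67 in the LHP tumors, 5.51, 6.19 and 6.76 in the S7HP tumors and 6.01, 6.56 and 6.50 in the S7HP+Snail tumors, and rose in both groups without overlap with LHP. Its differences were 1.61 ± 0.44 (SE; 3.05-fold) in S7HP (limma, BH-adjusted p = 0.0317) and 1.81 ± 0.44 (SE; 3.51-fold) in S7HP+Snail (limma, BH-adjusted p = 0.0393). Ifit3 (chr19:34583531-34588731) was at 6.85, 7.37 and 7.60 in the LHP tumors, 7.63, 8.41 and 9.14 in the S7HP tumors and 9.11, 9.10 and 9.44 in the S7HP+Snail tumors, and LHP tumor 6 lay just below S7HP tumor 9. It rose in S7HP+Snail by 1.94 ± 0.38 (SE; 3.85-fold) (limma, BH-adjusted p = 0.018) and did not pass in S7HP at 1.12 (limma, BH-adjusted p = 0.0662). Ifi44 (chr3:151730922-151749960), a cytoplasmic protein of the response, was at 6.20, 5.99 and 6.82 in the LHP tumors, 7.49, 8.02 and 7.92 in the S7HP tumors and 9.17, 8.93 and 9.04 in the S7HP+Snail tumors. The 3 groups formed 3 steps without overlap. Ifi44 rose by 1.47 ± 0.30 (SE; 2.78-fold) in S7HP (limma, BH-adjusted p = 0.00909) and by 2.71 ± 0.30 (SE; 6.54-fold) in S7HP+Snail relative to LHP (limma, BH-adjusted p = 0.00208). Among all 48 members Ifi44 had the largest rise in mean from S7HP to S7HP+Snail, 1.24 ± 0.30 (SE), which did not pass (limma, BH-adjusted p = 0.0683). The S7HP calls of Ifit1 and Ifit2 were lost without LHP tumor 2, LHP tumor 3 or S7HP tumor 11 or 12 (limma, BH-adjusted p up to 0.0843 and up to 0.104), and that of Ifit2 also without LHP tumor 6. In S7HP+Snail the calls of Ifit1, Ifit2 and Ifit3 were lost without LHP tumor 3 (limma, BH-adjusted p up to 0.0512, 0.126 and 0.0642). That of Ifit3 was also lost without LHP tumor 2, and that of Ifit2 in 8 other settings. Ifit3 has a near-identical neighbour, Ifit3b, between which reads may be split.

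Direct antiviral effectors gave 5 calls of 7 in both comparisons with LHP, against 9.47% (S7HP) and 3.35% (S7HP+Snail) of all genes called higher. Rsad2 (chr12:26442746-26456452), which encodes viperin, an enzyme that makes a chain-terminating nucleotide, was at 7.90, 6.93 and 7.93 in the LHP tumors, 9.37, 9.27 and 9.99 in the S7HP tumors and 10.16, 9.21 and 9.76 in the S7HP+Snail tumors. All 6 S7HP and S7HP+Snail tumors lay above all 3 LHP tumors. Rsad2 rose by 1.96 ± 0.36 (SE; 3.90-fold) in S7HP (limma, BH-adjusted p = 0.00691) and by 2.13 ± 0.36 (SE; 4.37-fold) in S7HP+Snail (limma, BH-adjusted p = 0.0108). Cmpk2 (chr12:26469204-26479837), its neighbour on chromosome 12 and a mitochondrial nucleotide kinase, was at 5.18, 5.24 and 5.37 in the LHP tumors, 6.50, 7.12 and 7.65 in the S7HP tumors and 6.83, 6.78 and 6.48 in the S7HP+Snail tumors. Its rise was 1.83 ± 0.37 (SE; 3.54-fold) in S7HP (limma, BH-adjusted p = 0.00931) and 1.43 ± 0.37 (SE; 2.70-fold) in S7HP+Snail (limma, BH-adjusted p = 0.0468), without overlap with LHP. Mx2 (chr16:97535308-97560900), a dynamin-like GTPase, was at 2.35, 4.43 and 4.09 in the LHP tumors, 6.91, 5.43 and 6.98 in the S7HP tumors and 6.30, 6.09 and 6.30 in the S7HP+Snail tumors. LHP tumor 2 was the lowest, near the level of a few reads, and the highest LHP value, 4.43, lay below the lowest of the others, 5.43. The fold of Mx2 therefore depends on the pseudocount, and its S7HP difference was 1.85 to 3.32 over the 15 settings. Mx2 rose by 2.82 ± 0.64 (SE; 7.04-fold) in S7HP (limma, BH-adjusted p = 0.0147) and by 2.61 ± 0.64 (SE; 6.09-fold) in S7HP+Snail (limma, BH-adjusted p = 0.0398). Ifitm3 (chr7:141009586-141010770), a membrane protein that blocks viral entry, was at 10.08, 10.21 and 10.56 in the LHP tumors, 11.97, 11.74 and 11.08 in the S7HP tumors and 11.61, 11.96 and 12.32 in the S7HP+Snail tumors. It rose by 1.31 ± 0.29 (SE; 2.48-fold) in S7HP (limma, BH-adjusted p = 0.0129) and by 1.68 ± 0.29 (SE; 3.20-fold) in S7HP+Snail (limma, BH-adjusted p = 0.011), again without overlap with LHP. Samd9l (chr6:3372257-3399572), a restriction factor that blocks translation, was at 6.01, 6.01 and 5.46 in the LHP tumors, 7.71, 7.04 and 8.46 in the S7HP tumors and 7.78, 6.94 and 7.53 in the S7HP+Snail tumors. LHP tumor 6 was here the lowest tumor, unlike in most members. Samd9l rose by 1.91 ± 0.42 (SE; 3.76-fold) in S7HP (limma, BH-adjusted p = 0.0126) and by 1.59 ± 0.42 (SE; 3.01-fold) in S7HP+Snail (limma, BH-adjusted p = 0.0487). Mx1 and Bst2, which encodes the virus-tethering protein tetherin, did not pass in either comparison with LHP, and Mx1 had a difference of 0.14 in S7HP.

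In S7HP the Mx2 call was lost without S7HP tumor 9 or 12 (limma, BH-adjusted p up to 0.0571) and that of Samd9l without LHP tumor 6 (limma, BH-adjusted p = 0.0502). In S7HP+Snail the calls of Cmpk2, Mx2 and Samd9l were lost in 11, 9 and 10 of the 15 settings (limma, BH-adjusted p up to 0.128, 0.0917 and 0.154). All 3 were lost without any 1 of LHP tumors 2, 3 and 6 or S7HP+Snail tumors 13 and 15. All 3 were also lost without the filter on low values and with only the 6 tumors compared. The Ifitm3 call in S7HP+Snail was lost without LHP tumor 3 (limma, BH-adjusted p = 0.0501). The annotation lists Mx2 as a polymorphic pseudogene in the C57BL/6 reference, so its transcript count is no measure of a working protein.

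The 7 interferon-inducible GTPase genes varied within groups, and in all 7 the highest LHP value was in tumor 6 and the highest S7HP+Snail value in tumor 14. In S7HP, 4 of 7 rose relative to LHP, against 9.47% of all genes called higher. In S7HP+Snail 0 of 7 were called, against 3.35% of all genes. All 7 S7HP+Snail means still lay above LHP, by 0.15 to 1.64, against 49.9% of all genes with a higher mean. The difference between those 2 comparisons is the comparison of S7HP+Snail with S7HP, in which 6 of 7 means were lower and none passed. Iigp1, an immunity-related GTPase that attacks parasite vacuoles, was at 10.38, 10.91 and 12.17 in the LHP tumors, 13.77, 12.89 and 13.92 in the S7HP tumors and 12.12, 13.60 and 12.66 in the S7HP+Snail tumors. LHP tumor 6 overlapped S7HP+Snail tumor 13, and S7HP+Snail tumor 14 lay within the S7HP range. Iigp1 rose by 2.37 ± 0.52 (SE; 5.17-fold) in S7HP (limma, BH-adjusted p = 0.0128), and its 1.64 in S7HP+Snail did not pass (limma, BH-adjusted p = 0.087). Igtp, Irgm1 and Irgm2, other immunity-related GTPases, rose in S7HP by 2.66 ± 0.80 (SE; 6.31-fold), 1.71 ± 0.43 (SE; 3.26-fold) and 2.22 ± 0.61 (SE; 4.65-fold) (limma, BH-adjusted p = 0.0449, 0.0232 and 0.0319). LHP tumor 6 lay above LHP tumors 2 and 3 in each of these 3 genes, at 8.70 for Igtp against 5.76 and 5.40. Without LHP tumor 2 or LHP tumor 3 the calls of all 3 were lost, and likewise without any 1 of the S7HP tumors (limma, BH-adjusted p up to 0.148, 0.082 and 0.108). The guanylate-binding protein genes Gbp2, Gbp3 and Gbp7 differed by 1.01, -0.27 and 1.04 in S7HP and overlapped LHP (limma, BH-adjusted p = 0.368, 0.784 and 0.142). The gene models of Igtp and Irgm2 overlap on the same strand of chromosome 11, so part of their reads may be shared.

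Summed markers of several other cell types were highest in the same LHP and S7HP+Snail tumors as the GTPases. For T and NK cells the summed normalized counts of the 11 matched markers were 94.6, 18.6 and 445 in the LHP tumors, 220, 149 and 360 in the S7HP tumors and 95.8, 464 and 83.7 in the S7HP+Snail tumors. LHP tumor 6 and S7HP+Snail tumor 14 were the highest of their groups in both this sum and the median of the GTPase genes. Of the 11 markers 7 could be tested and none was called in any comparison (limma, BH adjustment; 0 of 7 also at an unadjusted p under 0.05). The killing protein gene Prf1 was at 0 in 7 of 9 tumors and the NK receptor gene Ncr1 in 6 of 9. Macrophage marker sums were 7935, 8291 and 12800 in the LHP tumors, 6243, 4168 and 7070 in the S7HP tumors and 6926, 12160 and 5865 in the S7HP+Snail tumors, highest in the same tumor of each group as the GTPase median. Sums of the leukocyte, B cell and endothelial lists were also highest in LHP tumor 6 and S7HP+Snail tumor 14 within those groups. For leukocytes the S7HP+Snail sums were 3573, 5519 and 5439, so tumor 14 was barely above tumor 15. In S7HP these lists did not follow the GTPases, whose median was highest in tumor 12. The leukocyte sums of the S7HP tumors were 7870, 8263 and 5605, and the B cell and endothelial sums were highest in tumor 9. Neutrophil sums were lowest in LHP tumor 6 within its group, at 1407. Within their groups they were highest in S7HP tumor 12 and S7HP+Snail tumor 15, at 15880 and 32410. The part of these cell types in the GTPase values was not tested.

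**Figure D4:**
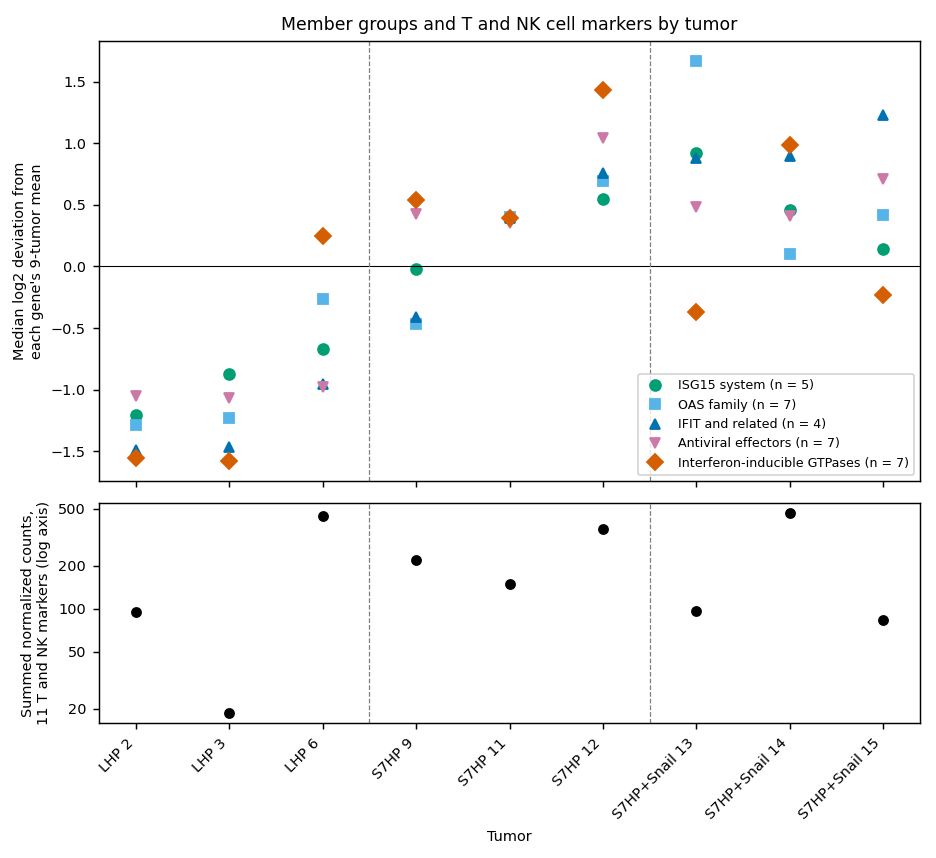
Upper panel: median log2 deviation from the 9-tumor mean of each gene, for 5 role groups of members, in each tumor. Lower panel: summed normalized counts of the 11 T and NK cell markers on a log axis. The GTPase medians of S7HP+Snail tumors 13, 14 and 15 were -0.37, 0.99 and -0.23, and the marker sums 95.8, 464 and 83.7.

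The last members fall into a group of 4 genes and a mixed group. Parp14, Parp9, Parp12 and Dtx3l encode ADP-ribosyltransferases and the ubiquitin ligase that pairs with PARP9, and 1 of 4 was called, in S7HP alone. In S7HP 9.47% of all genes were called higher, so 1 call among 4 genes is no result about the group. Parp14 (chr16:35832874-35871544) was at 6.25, 5.40 and 7.16 in the LHP tumors, 8.02, 8.21 and 8.68 in the S7HP tumors and 8.59, 7.38 and 7.59 in the S7HP+Snail tumors. LHP tumor 6 was the highest of its group and lay below all S7HP and S7HP+Snail tumors. Parp14 rose by 2.04 ± 0.48 (SE; 4.10-fold) in S7HP (limma, BH-adjusted p = 0.0179), a call lost without LHP tumor 2, LHP tumor 3 or S7HP tumor 12 (limma, BH-adjusted p up to 0.0598), and did not pass in S7HP+Snail at 1.58 (limma, BH-adjusted p = 0.078). Dtx3l (chr16:35926511-35939151) was at 8.10, 8.73 and 9.58 in the LHP tumors, 9.17, 9.32 and 9.87 in the S7HP tumors and 9.47, 9.29 and 9.12 in the S7HP+Snail tumors, with overlap in every comparison. The differences of Parp9, Parp12 and Dtx3l from LHP were 0.49 to 0.75 in the 2 groups and none passed. Dtx3l and Parp9 overlap on opposite strands.

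In the mixed group of 6 genes, 2 rose in S7HP and 3 in S7HP+Snail relative to LHP. The shares of all genes called higher were 9.47% and 3.35%. Ifi27 (chr12:103434211-103440239), a small protein induced by type I interferon, was at 10.77, 11.19 and 11.04 in the LHP tumors, 13.22, 13.15 and 12.99 in the S7HP tumors and 14.18, 13.99 and 13.13 in the S7HP+Snail tumors. The highest LHP value, 11.19, lay below the lowest of the 6 other tumors, 12.99. Ifi27 rose by 2.13 ± 0.28 (SE; 4.36-fold) in S7HP (limma, BH-adjusted p = 0.00153) and by 2.77 ± 0.28 (SE; 6.82-fold) in S7HP+Snail (limma, BH-adjusted p = 0.00135). Lgals3bp (chr11:118392751-118402092), a secreted glycoprotein that binds galectins, was at 8.24, 8.07 and 8.32 in the LHP tumors, 10.44, 10.70 and 10.83 in the S7HP tumors and 10.80, 9.97 and 10.98 in the S7HP+Snail tumors. The LHP tumors lay between 8.07 and 8.32 and all others at 9.97 or above. Lgals3bp rose by 2.45 ± 0.28 (SE; 5.45-fold) in S7HP, the smallest adjusted p among the members (limma, BH-adjusted p = 0.000828), and by 2.37 ± 0.28 (SE; 5.18-fold) in S7HP+Snail (limma, BH-adjusted p = 0.00256). Rtp4 (chr16:23520291-23614222), a receptor transporter protein, was at 7.34, 8.30 and 8.92 in the LHP tumors, 8.79, 9.34 and 9.29 in the S7HP tumors and 9.82, 9.75 and 10.15 in the S7HP+Snail tumors. Its S7HP+Snail tumors lay above all 6 others, and it rose by 1.72 ± 0.37 (SE; 3.29-fold) relative to LHP (limma, BH-adjusted p = 0.0274). The Rtp4 call was lost without LHP tumor 2, LHP tumor 3 or S7HP+Snail tumor 13 or 15. It was also lost with only the 6 tumors compared (limma, BH-adjusted p up to 0.0782 over these settings). Trim30a, a regulator of Toll-like receptor signalling, was higher in all S7HP+Snail tumors than in all S7HP tumors, by 0.97, and did not pass (limma, BH-adjusted p = 0.182). Xaf1 and Ifi35 did not pass in any comparison. The Rtp4 model overlaps Masp1 on the other strand.

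Over the 15 settings tried, 10 of the 21 calls in S7HP against LHP were kept in every one, those of Irf7, Isg15, Usp18, Ifi44, Rsad2, Cmpk2, Ifitm3, Iigp1, Ifi27 and Lgals3bp. For S7HP+Snail against LHP, 7 of 19 were kept in every one, those of Irf7, Isg15, Usp18, Ifi44, Rsad2, Ifi27 and Lgals3bp.

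Within the comparison of S7HP+Snail with S7HP, role groups had medians of different sign, and no member passed. The IFIT group had a median difference of 0.80 and the OAS family 0.61, while the GTPases had -0.68. The 5 members with an unadjusted limma p under 0.05 were Ifi44, Trim30a, Isg15, Irf7 and Ifi27, all higher with Snail, with BH-adjusted p of 0.0683, 0.182, 0.198, 0.215 and 0.266. The 95% intervals of the difference reached from -2.87 to 0.71 for Igtp and from 0.58 to 1.90 for Ifi44, so a fall of 1 log2 unit in Igtp and a rise of that size in Ifi44 both lie inside.

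The inputs of the pathway were looked at through a list of interferon genes. Of 23 symbols 21 were matched, 16 were listed at 0 in all 9 tumors, and none passed the filter for testing. Ifnb1 was at 0 in 8 tumors and at 1.83 in S7HP tumor 12. Ifng was at 0, 0 and 1.22 in the LHP tumors, 2.47, 0 and 0 in the S7HP tumors and 0, 2.00 and 0 in the S7HP+Snail tumors. These values correspond to a few reads or none, so differences in these ligand transcripts were not detectable at this depth. Ifnk, a type I interferon of epithelia, was the ligand that reached 4, at 0 in all LHP tumors, 2.47, 4.08 and 3.86 in the S7HP tumors and 3.39, 0 and 0 in the S7HP+Snail tumors. It was not tested.

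Of 16 genes for receptors, Janus kinases, STATs and interferon regulatory factors outside the 48, 3 rose and 1 fell in S7HP relative to LHP. Over all genes tested, 9.47% were called higher and 9.54% lower. Ifnlr1, the specific chain of the type III interferon receptor, was at 2.94, 3.06 and 1.74 in the LHP tumors, 7.28, 7.51 and 7.79 in the S7HP tumors and 3.86, 5.11 and 2.92 in the S7HP+Snail tumors. All 3 S7HP tumors lay above all other tumors. Ifnlr1 rose by 4.95 ± 0.66 (SE; 30.9-fold) in S7HP (limma, BH-adjusted p = 0.00163) and fell by 3.57 ± 0.66 (SE) from S7HP to S7HP+Snail (limma, BH-adjusted p = 0.0279). The fall was lost without any 1 S7HP tumor, without S7HP+Snail tumor 13 or with the 6 tumors alone (limma, BH-adjusted p up to 0.1). All 3 LHP values of Ifnlr1 lie below the filter of 4 and near the level of a few reads. The gene was tested only because the S7HP tumors and S7HP+Snail tumor 14 reached 4, and its fold depends on the pseudocount. Ifngr1, the ligand-binding chain of the interferon gamma receptor, rose by 0.99 ± 0.22 (SE; 1.98-fold) in S7HP (limma, BH-adjusted p = 0.0148), and Irf3, which starts interferon transcription, by 1.32 ± 0.31 (SE; 2.49-fold) (limma, BH-adjusted p = 0.0184). Irf5 fell by 1.43 ± 0.43 (SE) (limma, BH-adjusted p = 0.0434). The Ifngr1 and Irf3 calls were lost without LHP tumor 2 or S7HP tumor 9, that of Irf3 also without LHP tumor 6 or S7HP tumor 11 (limma, BH-adjusted p up to 0.0515 and 0.0591), and the Irf5 call in 7 settings (limma, BH-adjusted p up to 0.137). The type I receptor genes Ifnar1 and Ifnar2 differed by 0.69 and -0.35 and did not pass (limma, BH-adjusted p = 0.0852 and 0.379). Ifngr1 was also called in S7HP+Snail relative to LHP, higher by 1.12 (limma, BH-adjusted p = 0.0199). That call was lost without any 1 LHP tumor (limma, BH-adjusted p up to 0.0699).

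Irf1, a transcription factor gene induced by interferon gamma, did not pass. It was at 11.14, 11.59 and 13.26 in the LHP tumors, 12.13, 12.92 and 13.13 in the S7HP tumors and 11.97, 12.30 and 12.04 in the S7HP+Snail tumors. LHP tumor 6 had the highest value of all 9 tumors, and the difference for S7HP against LHP was 0.73 (limma, BH-adjusted p = 0.328). Without LHP tumor 6 it passed, at a log2 difference of 1.36 (limma, BH-adjusted p = 0.0369).

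**Figure D5:**
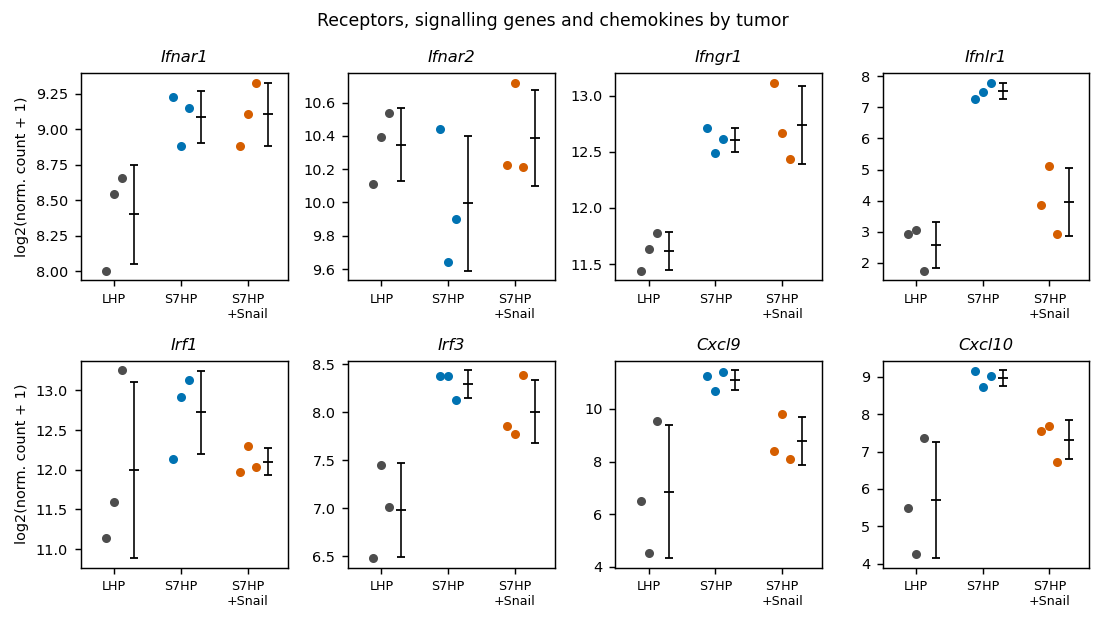
Log2 values of 4 receptor genes, 2 signalling genes and 2 chemokine genes by tumor, with 1 point per tumor and the mean ± SD (n = 3) beside each group. The S7HP tumors of Ifnlr1, Cxcl9 and Cxcl10 lie above all other tumors, and the LHP group of Irf1 spans 11.14 to 13.26.

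Of 13 testable genes that sense nucleic acids upstream of interferon, 3 rose and 1 fell in S7HP relative to LHP. Over all genes tested, 9.47% were called higher and 9.54% lower. The endosomal RNA receptor genes Tlr3 and Tlr7 rose by 1.87 ± 0.36 (SE; 3.66-fold) and 3.68 ± 0.999 (SE; 12.8-fold) (limma, BH-adjusted p = 0.00797 and 0.0306), and the kinase gene Tbk1 by 1.03 ± 0.25 (SE; 2.05-fold) (limma, BH-adjusted p = 0.019). Tlr7 was listed at 0 in LHP tumor 3, and its call was lost without LHP tumor 6 or any 1 S7HP tumor (limma, BH-adjusted p up to 0.0846). The Tbk1 call was lost without LHP tumor 3, LHP tumor 6 or S7HP tumor 12 (limma, BH-adjusted p up to 0.0707). Mb21d1, which encodes the DNA sensor cGAS, fell by 1.02 ± 0.30 (SE) (limma, BH-adjusted p = 0.0426), a call lost in 7 of the 15 settings (up to 0.152). Tlr7 was also called in S7HP+Snail relative to LHP, higher by 3.96 (limma, BH-adjusted p = 0.0446), a call lost in 10 of the 15 settings (up to 0.0937). Of 10 negative regulators, Trim24 and Irf2bp1 rose by 0.96 ± 0.19 (SE; 1.95-fold) and 0.92 ± 0.28 (SE; 1.89-fold) (limma, BH-adjusted p = 0.00787 and 0.0492) and Cish, a cytokine-induced inhibitor, fell by 2.45 ± 0.44 (SE) (limma, BH-adjusted p = 0.00622). The Irf2bp1 call was lost in 11 of the 15 settings (limma, BH-adjusted p up to 0.157). Socs1, the feedback inhibitor of Janus kinases, differed by 0.02 ± 0.61 (SE) and did not pass (limma, BH-adjusted p = 0.986). Trim24 was also called in S7HP+Snail relative to LHP, higher by 0.94 (limma, BH-adjusted p = 0.0188). That call was lost without any 1 LHP tumor (limma, BH-adjusted p up to 0.0724).

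A list of 61 further testable interferon-stimulated genes gave 11 that rose, 0 that fell and 50 that did not pass in S7HP relative to LHP. Over all genes tested, 9.47% were called higher and 9.54% lower. The median difference of the list was 0.53, against 0.02 over all genes. Lgals9, which encodes a galectin, rose by 2.58 ± 0.29 (SE; 5.97-fold) (limma, BH-adjusted p = 0.000828) and Nmi, a STAT-binding protein, by 2.01 ± 0.35 (SE; 4.02-fold) (limma, BH-adjusted p = 0.00538). The immunity-related GTPase gene Tgtp2 rose by 3.87 ± 0.77 (SE; 14.6-fold) (limma, BH-adjusted p = 0.00894), with values of 3.86 to 6.63 in LHP, 7.92 to 9.77 in S7HP and 5.52 to 7.11 in S7HP+Snail. Tgtp1 is a near-identical copy whose reads may be split with it. In S7HP+Snail relative to LHP, 5 of the 61 rose and 0 fell, against 3.35% of all genes called higher and 3.87% lower. Isg20, an RNA exonuclease, was the single gene of the list called between S7HP and S7HP+Snail, and fell by 2.64 ± 0.42 (SE) (limma, BH-adjusted p = 0.0154). It was at 7.07, 6.59 and 6.02 in the LHP tumors, 7.91, 8.90 and 7.97 in the S7HP tumors and 6.12, 5.32 and 5.43 in the S7HP+Snail tumors, so the S7HP tumors lay above all others. That call was lost without S7HP tumor 11 or 12 (limma, BH-adjusted p up to 0.0735).

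Of 6 interferon-inducible chemokine genes 2 rose in S7HP relative to LHP, against 9.47% of all genes called higher. Cxcl9, which recruits T cells through CXCR3 and responds mainly to interferon gamma, was at 6.50, 4.51 and 9.54 in the LHP tumors, 11.24, 10.68 and 11.40 in the S7HP tumors and 8.40, 9.80 and 8.10 in the S7HP+Snail tumors. LHP tumor 6 was the highest of its group and lay below all S7HP tumors. Cxcl9 rose by 4.26 ± 1.03 (SE; 19.1-fold) in S7HP (limma, BH-adjusted p = 0.02), a call lost without LHP tumor 2, LHP tumor 3 or S7HP tumor 9 or 12 (limma, BH-adjusted p up to 0.068). Cxcl10, a second CXCR3 ligand, was at 5.48, 4.27 and 7.37 in the LHP tumors, 9.15, 8.72 and 9.01 in the S7HP tumors and 7.55, 7.68 and 6.72 in the S7HP+Snail tumors. It rose by 3.26 ± 0.66 (SE; 9.55-fold) in S7HP (limma, BH-adjusted p = 0.00982), and all S7HP+Snail tumors lay below all S7HP tumors without passing the test (limma, BH-adjusted p = 0.23). Ccl7, a monocyte chemokine, rose by 2.94 ± 0.52 (SE; 7.70-fold) from S7HP to S7HP+Snail (limma, BH-adjusted p = 0.022). The Ccl7 call was lost without any 1 S7HP tumor, without S7HP+Snail tumor 13 or with the 6 tumors alone (limma, BH-adjusted p up to 0.0941).

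Marker lists of other cell types were measured in the same tumors. The leukocyte gene Ptprc was at 9.66, 9.93 and 11.03 in the LHP tumors, 9.90, 9.46 and 9.97 in the S7HP tumors and 8.85, 10.44 and 10.38 in the S7HP+Snail tumors, and differed by -0.43 in S7HP relative to LHP (limma, BH-adjusted p = 0.56). Of 5 leukocyte markers 0 rose and 2 fell in S7HP, and of 10 macrophage markers 0 rose and 1 fell, against 9.54% of all genes called lower. None of the 4 neutrophil, 7 endothelial and 7 testable T and NK cell markers was called (limma, BH adjustment), with 0, 2 and 0 at an unadjusted p under 0.05. Their median differences in S7HP were 1.42, -0.67 and 1.90, and all 4 neutrophil and all 7 T and NK cell markers had a higher mean than in LHP. Neutrophil sums were 1407 to 9949 normalized counts in LHP, 6372 to 15880 in S7HP and 3495 to 32410 in S7HP+Snail. Siglech, the defining marker of plasmacytoid dendritic cells, which are strong makers of type I interferon, was at 1.22, 0 and 2.92 in the LHP tumors, 4.10, 1.29 and 2.45 in the S7HP tumors and 0, 2.00 and 0.42 in the S7HP+Snail tumors and could not be tested, like 4 others of the 9 genes of that list. Ly6d of that list rose by 4.31 in S7HP relative to LHP, and Tcf4 and Runx2 fell by 1.89 and 1.76 (limma, BH-adjusted p = 0.0118, 0.017 and 0.00251). Other cell types also express these genes. In S7HP+Snail relative to LHP, Ly6d rose by 4.81 and Runx2 fell by 1.005 (limma, BH-adjusted p = 0.0169 and 0.0469). From S7HP to S7HP+Snail, Tcf4 rose by 2.74 (limma, BH-adjusted p = 0.0178). Each Tcf4 call was lost in 3 of the 15 settings. In S7HP+Snail, the Ly6d call was lost in 3 and the Runx2 call in 11. None of 4 B cell markers could be tested. Hepatocyte markers rose in 6 of 9 cases in S7HP, against 9.47% of all genes called higher. Their sums were 88100 to 132000 normalized counts in LHP, 338000 to 656000 in S7HP and 191000 to 291000 in S7HP+Snail. Stellate cell and fibroblast markers fell in 4 of 7 cases in S7HP, against 9.54% of all genes called lower. Their sums were 33400 to 42500 in LHP, 5570 to 8580 in S7HP and 11000 to 19000 in S7HP+Snail. The part of these cell type differences in the member values was not tested.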

How the data were processed

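Gene expression was measured in 9 mouse liver tumors, 3 in each of 3 groups taken from the sample titles. Per the labels' protocols, total RNA was isolated with Trizol and sequenced as QuantSeq 3′ libraries. The submitters' processing notes name mm10 as the build and list edgeR and Bowtie2 without versions. How reads were counted, and on which annotation, is not given in the sources used here. Per the values, deposited entries are log2(count + 1), with the count quantile-normalized by the authors. Once unlogged and multiplied by 9, 100% of values were whole (tolerance 0.001, growing in proportion for large values). Averaging 9 libraries at each rank would give this. For the highest values the check could not fail. Quantile normalization gives all tumors 1 distribution and removes differences in total RNA output and in depth.

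From these values, limma 3.58.1 (R 4.3.3; lmFit, eBayes with trend and robust) was fitted to all 9 tumors with 3 group means and 6 residual degrees of freedom, over the 14215 genes at log2 4 or more in 3 or more tumors. Tests were two-sided, and p-values were Benjamini-Hochberg adjusted over all 14215 genes. The fit was tested on simulated data. Coordinates came from GENCODE M21 (GRCm38, the mm10 assembly), matched for 48 of 48 members, and promoters from RefSeq (GRCm38.p6), matched for 36. Figures were drawn with matplotlib 3.10.9.

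The members, the 15 other gene lists and the tests were chosen with earlier results of these data known. Of the 207 list entries 199 were matched, and 1 gene counted in the signalling list is not reported here. All members may be named. Values in each tumor are given for the 15 members with the smallest adjusted p in S7HP against LHP, for members called in the other comparisons and for the member with the highest mean in each role. Of the lists, 11 preset genes and up to 8 called genes per list and comparison may be named. The 15 alternative settings were centring on the median, no filter, a filter at 6, a pseudocount of 16, eBayes without trend and robust, only the 6 tumors compared, and each of the 9 tumors left out.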

Additional observations from a re-analysis of the deposited data

How the results depend on the processing

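No member was called lower in any comparison or setting, and none was called between S7HP and S7HP+Snail in any of the 15 settings. The count of members called higher, 21 in S7HP and 19 in S7HP+Snail relative to LHP, was 12 to 22 and 7 to 18 when 1 tumor was left out. For S7HP+Snail against LHP it was 12 without the filter on low values and 10 with only the 6 tumors compared. Over all genes, 2702, 327 and 1026 were called in S7HP against LHP, S7HP+Snail against S7HP and S7HP+Snail against LHP, and 1465 to 3163, 63 to 451 and 293 to 1049 with 1 tumor left out. With only the 6 tumors compared, 120 genes were called between S7HP+Snail and S7HP and 682 between S7HP+Snail and LHP, while S7HP against LHP gave more, 3430 genes and 22 members. The cause was not tested. The median difference of the members was 0.96 to 1.42, -0.05 to 0.19 and 1.14 to 1.73 with 1 tumor left out, so its sign between S7HP and S7HP+Snail turned without S7HP+Snail tumor 13.

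Differences that had not passed the test turned sign for some genes when 1 tumor was left out, and the cause was not tested. For S7HP against LHP the ranges were -0.19 to 0.86 for Uba7, -0.076 to 1.29 for Zbp1, -0.48 to 0.62 for Socs1, -0.15 to 0.51 for Mx1 and -0.65 to 0.21 for Gbp3. For S7HP+Snail against LHP they were -0.12 to 0.92 for Uba7 and -0.44 to 1.01 for Gbp2. For S7HP+Snail against S7HP they were -0.20 to 0.11 for Ifih1, -0.13 to 0.62 for Zbp1, -0.12 to 0.51 for Ifit2, -0.72 to 0.061 for Mx2, -0.07 to 0.32 for Irf9, -0.25 to 0.025 for Usp18, -0.32 to 0.48 for Uba7, -0.40 to 0.11 for Xaf1, -0.36 to 0.039 for Trim25, -0.60 to 0.15 for Eif2ak2, -0.75 to 0.21 for Oasl1, -0.67 to 0.043 for Samd9l, -0.30 to 0.049 for Dtx3l, -0.27 to 0.23 for Lgals3bp, -0.062 to 0.42 for Rsad2, -0.086 to 0.39 for Parp12, -0.84 to 0.083 for Oas3 and -0.002 to 0.17 for Dhx58. Of the called genes recomputed (all members and list genes named here), none turned sign. No paired analysis was possible because the groups share no tumor numbers.

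Quantile normalization removes raw depth, so no counting interval can be given, and genes listed near 0 such as the interferons cannot be told from genes below detection. With 3 tumors a group, differences that missed the threshold are not shown to be absent.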

Other observations

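Ifitm1, a gene of the same family as Ifitm3 that was not among the 48, was chosen here after its values were seen. It was at 9.02, 8.62 and 8.57 in the LHP tumors, 8.42, 8.18 and 7.99 in the S7HP tumors and 8.84, 11.33 and 13.50 in the S7HP+Snail tumors on the log2 scale. Ifitm3 rose in S7HP relative to LHP, while every S7HP tumor of Ifitm1 lay below every LHP tumor, at a difference of -0.54 that did not pass (limma, Benjamini-Hochberg adjusted p = 0.71). From S7HP to S7HP+Snail the mean of Ifitm1 was higher by 3.02 ± 0.90 (SE) and did not pass (limma, Benjamini-Hochberg adjusted p = 0.114), with S7HP+Snail tumors 14 and 15 far above tumor 13.

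Nlrc5 and Psmb10, of the list of further interferon-stimulated genes, were chosen here after their values were seen. Relative to LHP in S7HP, Nlrc5, the transactivator of MHC class I genes, rose by 2.29 ± 0.48 (SE) and Psmb10, a subunit of the immunoproteasome, by 1.45 ± 0.32 (SE) (limma, Benjamini-Hochberg adjusted p = 0.011 and 0.0141). Other genes of antigen presentation on that list, Psmb8, Psmb9, Tap1 and Tapbp, differed by 1.35, 1.22, 0.49 and 0.01 and did not pass (limma, Benjamini-Hochberg adjusted p = 0.0682, 0.192, 0.73 and 0.99). The Psmb10 call was lost without LHP tumor 3 (limma, Benjamini-Hochberg adjusted p = 0.054). In S7HP+Snail both had lower means than in S7HP, at 5.78 and 9.19 against 7.10 and 10.06, and neither difference passed (limma, Benjamini-Hochberg adjusted p = 0.186 and 0.197).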
